A study of Homo sapiens and Mus musculus with 12 samples.

Results

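The binding sites of SPI1 and of GFI1 in THP1 cells were compared site by site. The deposited list of SPI1 peaks held 1846 regions and that of GFI1 held 3461, together 5307 of the 12513 regions in the 5 peak lists of the series. A peak of either list was classed as shared when it overlapped a peak of the other list by at least 1 bp, and as SPI1 only or GFI1 only otherwise. This gave 1653 SPI1-only sites, 193 shared sites and 3268 GFI1-only sites, 5114 distinct sites in all. Every shared site paired 1 SPI1 peak with 1 GFI1 peak.

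THP1 is a human monocytic leukemia line. Cells had been cross-linked by DSG plus formaldehyde, and their chromatin was immunoprecipitated with an antibody against SPI1 or an antibody against GFI1. The labels name no genotype, knockdown or treatment for these cells, and each antibody had 1 library. No value therefore has a replicate check, no test between the libraries was made, and the 95% Wilson intervals given for shares cover counting error only.

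SPI1, also known as PU.1, is an ETS family transcription factor that drives monocyte and macrophage genes and binds purine-rich DNA with a GGAA centre. GFI1 is a zinc finger repressor of the same lineage. It brings LSD1 and CoREST to DNA through its SNAG domain and binds elements that contain AATC. Both factors are known for opposing roles in the choice between the monocytic and the granulocytic fate.

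The reference sequence at the strongest sites of each class is shown first, because it differed visibly between the classes. Capitals mark GAGGAA and GGAAGT, which carry the GGAA centre of ETS sites, and AATC, the centre of GFI1 sites, each on either strand; GAGGAAGT holds both GAGGAA and GGAAGT. All sequences are the plus strand of GRCh38, with 50 bp on either side of 1 summit or 40 bp outside both summits of a shared site. Sites that overlap an annotated exon are not shown. Of the 5 strongest SPI1-only sites, these 4 remained, each named by the nearest protein-coding start.
SPI1 only, nearest to SPDYE21, chr7:67918316-67918415: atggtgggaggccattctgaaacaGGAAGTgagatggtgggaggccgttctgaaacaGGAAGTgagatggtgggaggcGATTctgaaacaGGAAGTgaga
SPI1 only, nearest to C1orf174, chr1:4007595-4007694: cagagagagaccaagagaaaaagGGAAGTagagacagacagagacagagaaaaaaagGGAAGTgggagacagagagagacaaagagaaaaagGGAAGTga
SPI1 only, intron of SLC38A1, chr12:46218103-46218202: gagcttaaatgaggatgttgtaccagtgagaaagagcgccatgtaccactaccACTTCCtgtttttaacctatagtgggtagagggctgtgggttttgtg
SPI1 only, intron of POMT1, chr9:131516028-131516127: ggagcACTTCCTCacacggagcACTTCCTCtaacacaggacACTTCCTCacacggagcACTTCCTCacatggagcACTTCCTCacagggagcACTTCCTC

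Of the 5 strongest GFI1-only sites, 3 lay outside exons.
GFI1 only, intron of STAB1, chr3:52498919-52499018: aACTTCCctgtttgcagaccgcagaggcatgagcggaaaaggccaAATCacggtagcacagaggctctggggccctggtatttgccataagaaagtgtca
GFI1 only, near the start of ALG14, chr1:95072643-95072742: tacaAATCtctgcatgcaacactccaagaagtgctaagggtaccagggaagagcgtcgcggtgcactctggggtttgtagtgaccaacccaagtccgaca
GFI1 only, nearest to SPRED1, chr15:38130846-38130945: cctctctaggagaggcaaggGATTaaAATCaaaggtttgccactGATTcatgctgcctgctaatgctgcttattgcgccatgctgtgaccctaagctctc

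For the shared sites, the first pair below comes from the 5 strongest. The next pair holds ranks 6 and 8, taken after the values were seen because they lay outside the stretches of raised background described further on. The last group holds examples at genes of the myeloid lists, and each of them carries an ETS sequence and AATC. Not every such site did. Over the same kind of stretch, the shared sites at ETV6 and PIK3CD held neither GAGGAA nor GGAAGT, and that at FLT3 held no AATC. Those at TNFRSF1B and B2M held both kinds.
Shared, nearest to TRIT1, chr1:39890446-39890552: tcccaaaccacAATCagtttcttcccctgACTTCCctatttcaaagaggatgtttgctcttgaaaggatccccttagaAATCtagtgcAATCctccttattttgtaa
Shared, nearest to ARID2, chr12:45577388-45577469: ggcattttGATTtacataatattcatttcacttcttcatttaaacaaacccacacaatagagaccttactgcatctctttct
Shared, nearest to FCRLB, chr1:161718932-161719047: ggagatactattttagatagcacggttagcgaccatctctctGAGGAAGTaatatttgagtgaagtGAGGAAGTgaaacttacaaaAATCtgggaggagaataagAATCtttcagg
Shared, intron of RBM47, chr4:40621756-40621860: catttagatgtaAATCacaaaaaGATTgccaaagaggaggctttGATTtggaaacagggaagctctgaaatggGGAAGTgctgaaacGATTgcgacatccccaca
Shared, intron of CSF1R, chr5:150058920-150059055: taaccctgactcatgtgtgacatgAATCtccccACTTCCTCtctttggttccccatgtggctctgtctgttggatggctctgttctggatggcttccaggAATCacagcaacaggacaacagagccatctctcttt
Shared, upstream of LYZ, chr12:69338158-69338289: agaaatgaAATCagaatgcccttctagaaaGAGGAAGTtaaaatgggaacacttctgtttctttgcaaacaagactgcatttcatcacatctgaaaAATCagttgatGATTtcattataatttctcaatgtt
Shared, intron of IL17RA, chr22:17098591-17098717: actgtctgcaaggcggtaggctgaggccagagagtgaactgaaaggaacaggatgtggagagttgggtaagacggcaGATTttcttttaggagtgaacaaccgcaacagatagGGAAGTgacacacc
Shared, upstream of FCGR2B, chr1:161658676-161658759: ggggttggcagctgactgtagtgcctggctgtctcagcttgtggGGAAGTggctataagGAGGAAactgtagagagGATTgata

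Of the 5 strongest SPI1-only sites, all but the one in SLC38A1 carried the ETS sequence in repeated copies. The site nearest to SPDYE21, 641425 bp from that start, had a −log10 p of 202 and an enrichment over local background, here called fold, of 72.6. GGAAGT occurred 3 times in the 100 bp shown, and 91.6% of the bases in 200 bp were the same as the base 33 bp further on. At the site nearest to C1orf174 (fold 64.8), GGAAGT also occurred 3 times in the 100 bp shown. In the intron of POMT1, a protein O-mannosyltransferase gene, the site had a fold of 43.4 and held 6 copies of GAGGAA in 100 bp. The site nearest to CFAP46 (fold 39.2) held 10 copies in 200 bp. The SLC38A1 site, in an intron of an amino acid transporter gene, had 1 GGAAGT and no repeat, with a fold of 33.8 over a local background that was itself 5.29 times the genome-wide level.

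Regular tandem repeats were counted over each class by a stricter measure. A summit was called a tandem repeat when at least 70% of the bases in 200 bp matched the base at a fixed step of 3 to 80 bp, a rule chosen after the sequences were seen. Of the repeated sites above it takes in that near SPDYE21 and leaves out those at C1orf174 (59.8%), POMT1 (68.9%) and CFAP46 (61.9%), so it does not count looser repeats. This held for 23 of 1653 SPI1-only summits (1.39%, interval 0.929 to 2.08), but for 5 of the strongest 25. Among shared sites it held for 0 of 193 at either summit, which allows a share of up to 1.95%, and among GFI1-only summits for 26 of 3268 (0.796%). At least 3 copies of GAGGAA lay in the 200 bp around 93 SPI1-only summits, with up to 20 copies at 1 summit, and around 19 GFI1-only summits. Reads from repeats map less surely than others, and the part of mapping in the strength of these peaks was not tested.

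The 5 strongest GFI1-only sites had no repeated copies of GAGGAA or GGAAGT in the 100 bp at the summit. The first lay in an intron of STAB1, the gene of the scavenger receptor stabilin-1, where the −log10 p was 133 and the fold 50.5, with 1 copy of the GFI1 core AATCAC. Those at TMEM237 (fold 46.2), ALG14 (fold 41.2) and RGMB (fold 41.1) lay within 1000 bp of the gene's start. The site nearest to SPRED1, the gene of an inhibitor of Ras signalling, lay 121940 bp upstream of the start with a fold of 37.2 and held AATC 3 times in the 100 bp shown. None of the 3 sequences shown for this class contained GAGGAA, but that at STAB1 held GGAAGT once. GAGGAA was also absent from the SPI1-only sequences shown for SPDYE21, C1orf174 and SLC38A1.

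Shared sites were ranked by the weaker of their 2 standings. The first 5 were nearest to TRIT1, CTSB, ARID2, SMAP2 and CAP1. At CTSB, the gene of the lysosomal protease cathepsin B, the SPI1 peak had a fold of 30.1 and the GFI1 peak 18.4, with summits 42 bp apart. At SMAP2 the GFI1 peak was the strongest of its list (fold 35.9, −log10 p 327), while the SPI1 peak had a fold of 7.61. The reverse case was the strongest SPI1 peak, which lay outside genes on chromosome 10 with AKR1E2 as the nearest start. There SPI1 reached a fold of 94.7 and GFI1 6.74.

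Of these 5 sites, all but the one at CTSB lay in stretches where the background itself was raised. The number of fragments over each summit and the local background were solved from the fold and p-value of each peak. Summits had 5 to 132 fragments in the SPI1 library and 6 to 272 in the GFI1 library. Bins of 1 Mb were called raised when they held at least 5 peaks whose median background was at least 3 times the genome-wide level, a rule set after the data were seen. There were 8 such bins. The largest stretch, on chromosome 1 from 39000001 to 42000000, had a median background of 11.6 times the genome-wide level at its 35 SPI1 peaks and 10.1 times at its 57 GFI1 peaks. At the 14 LSD1 peaks of K562 cells in the same stretch it was 1.32 times. The stretch on chromosome 12 from 45000001 to 47000000 reached 4.48 times for SPI1 and 4.38 times for GFI1. These bins held 51 SPI1-only sites (3.09%), 13 shared sites (6.74%, interval 3.98 to 11.2) and 80 GFI1-only sites (2.45%). The cause of the raised background was not tested. Without these bins the shared sites made up 10.1% of SPI1 peaks and 5.34% of GFI1 peaks.

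Shared peaks were somewhat stronger than unshared peaks of the same list. Among SPI1 peaks the median fold was 9.26 at shared sites (quartiles 7.13 and 11.7) and 8.55 at SPI1-only sites (7.0 and 11), a ratio of 1.08. Among GFI1 peaks it was 8.08 at shared sites (6.25 and 12.4) and 7.28 at GFI1-only sites (5.91 and 9.49), a ratio of 1.11. The distributions overlapped almost fully in both lists, as the curves of fold by class show. The median width was 339 bp for shared and 324 bp for unshared SPI1 peaks, and 456 bp for shared and 409 bp for unshared GFI1 peaks. Wider peaks overlap others more readily, and the part of width was not tested.

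The share of peaks that were shared followed strength more in the GFI1 list. When the GFI1 peaks were ordered by −log10 p and cut into 4 equal parts, 3.46% of the weakest part was shared (interval 2.44 to 4.90), then 4.51%, 5.43% and 8.90% of the strongest (interval 7.18 to 11). For SPI1 the shares were 7.58% (interval 5.50 to 10.4), 11%, 10.2% and 13.0% (interval 10.2 to 16.4). Without the stretches of raised background, the strongest part of the GFI1 list had 8.08% and that of the SPI1 list 11.7%. Within the 193 shared sites the fold values of both factors were hardly related. Pearson's r of log2 fold was 0.0334 and Spearman's rho 0.0866 across sites, given as a description because the sites of a list come from 1 library.

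Some shared sites had a high fold for 1 factor and a lower one for the other, and the following were picked for this after their values were seen. A high SPI1 fold was found at sites nearest to CYTH4 (SPI1 fold 36.3, GFI1 fold 8.08), TFAP2C (29.2 and 6.74) and MARCO (17.7 and 6.74), the gene of a macrophage scavenger receptor. A high GFI1 fold was found at sites nearest to ATP6V1G2 (GFI1 fold 32.2, SPI1 fold 7.40) and ARHGAP26 (28.7 and 5.23). Fold values of different libraries are not on 1 scale, so each is to be read against the quartiles of its own list.

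At shared sites the distance between the summits was limited in advance, because the peaks had to overlap. Their median widths were 339 bp for SPI1 and 456 bp for GFI1. The distances below describe the sites within that limit. The median distance was 75 bp (order-statistic interval 67.0 to 111), with quartiles of 33.0 and 177 bp and a maximum of 663 bp. The summits were at most 10 bp apart at 17 sites, at most 50 bp apart at 69 sites and at most 200 bp apart at 153 of the 193 sites (79.3%, interval 73.0 to 84.4). The GFI1 summit had the higher coordinate at 107 sites (55.4%, interval 48.4 to 62.3). In ETV6, the gene of an ETS family repressor, both summits fell on the same base. At IL17RA, the interleukin-17 receptor gene, they were 46 bp apart, and at the strongest SPI1 peak of all 483 bp. Chromatin fragments were 100–500 bp long by the labels, so a distance of this size does not tell 1 element from 2 neighbouring ones.

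Most unshared sites lay far from any site of the other factor. The nearest GFI1 summit was a median of 160 kb from an SPI1-only summit, and the nearest SPI1 summit 305 kb from a GFI1-only summit. A GFI1 summit lay within 1000 bp of 22 SPI1-only summits (1.33%, interval 0.881 to 2.01) and within 10000 bp of 155 (9.38%). An SPI1 summit lay within 10000 bp of 172 GFI1-only summits (5.26%). The lists differ in length, which bears on these distances. At the border between the classes, the smallest overlaps were 36 and 60 bp, and the smallest gaps between unshared peaks 16 and 45 bp.

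GFI1-only sites lay at promoters more often than the other classes. Summits at most 1000 bp from a protein-coding transcript's start were counted as promoter. This was so for 876 of 3268 GFI1-only sites (26.8%, interval 25.3 to 28.4), 227 of 1653 SPI1-only sites (13.7%, interval 12.2 to 15.5) and 20 of 193 shared sites (10.4%, interval 6.81 to 15.5). The interval of the GFI1-only class did not overlap the others, while those of the SPI1-only and shared classes did overlap. With promoters drawn to 5000 bp the shares were 39.6%, 26.8% and 28.0%, and with the strongest 1500 peaks of each list 24.2%, 12.5% and 15.7%, so the order of SPI1-only and shared sites turned. Introns held 40.5% of SPI1-only, 39.4% of shared and 32.7% of GFI1-only sites, and 43.3%, 48.2% and 38.0% lay outside genes. The median distance to the nearest start was 17724 bp for SPI1-only, 17788 bp for shared and 10047 bp for GFI1-only sites. CpG-rich DNA was also most frequent at GFI1-only sites. At least 10 CpG in 200 bp were found at 21.8% of GFI1-only summits (interval 20.4 to 23.2), 7.20% of SPI1-only summits and, for shared sites, at 6.22% of SPI1 and 7.25% of GFI1 summits.

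The SPI1 core was frequent at SPI1-only and at shared sites. GAGGAAGT, searched on both strands in 50 bp at the summit, was found at 27.2% of SPI1-only summits (450 of 1653, interval 25.1 to 29.4) and at 19.7% of shared sites at the SPI1 summit (38 of 193, interval 14.7 to 25.9). At windows of the same length 2000 bp away on either side, the shares were 0.181% and 0.259%. At the GFI1 summit of shared sites it was found at 5.18%, against 1.53% of GFI1-only summits (interval 1.16 to 2.01) and 0.26% in the windows 2000 bp away from these. The composite GGAANNGAA, in which a GGAA site stands beside an interferon regulatory factor element, was found at 12.6% of SPI1-only summits and at 13.0% of shared sites at the SPI1 summit, against 1.30% and 1.81% 2000 bp away. It was found at 2.60% of GFI1-only summits.

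The GFI1 core was less frequent, and at shared sites its share could not be told apart from that of the surrounding DNA at this number of sites. AATCAC was found at 10.3% of GFI1-only summits (338 of 3268, interval 9.34 to 11.4), against 2.31% 2000 bp away. At the GFI1 summit of shared sites it was found at 5.70% (11 of 193, interval 3.21 to 9.92), against 3.37% (interval 1.98 to 5.68) 2000 bp away. The longer form AATCACNGC was found at 3.95% of GFI1-only summits (129 of 3268), 1.55% of shared sites (3 of 193) and 0.0605% of SPI1-only summits (1 of 1653). The shorter AATC was found at 51.1% of GFI1-only and 48.2% of shared GFI1 summits, against 29.1% and 31.1% 2000 bp away. Its share at SPI1-only summits was 16.0% (interval 14.3 to 17.9), below the 28.4% in the surrounding DNA, and at the SPI1 summit of shared sites 31.1%, against 30.8%. In 200 bp at the summit, AATCAC was found at 28.2% of GFI1-only, 21.2% of shared and 7.68% of SPI1-only sites. Outside promoters, with 50 bp, the order was the same, with AATCAC at 10.9% of GFI1-only, 4.62% of shared GFI1 and 1.61% of SPI1-only summits.

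Some shared sites show both sequences side by side. At CSF1R, the shared site printed above held GAGGAAGT (read on the minus strand) and AATCAC at summits 55 bp apart. Over all shared sites, 37 of 193 (19.2%) had GAGGAA in the 50 bp at the SPI1 summit together with AATC at the GFI1 summit. Only GAGGAA was found at 32 sites and only AATC at 56. At 68 sites (35.2%, interval 28.8 to 42.2) neither was found. In 200 bp at the summits, 115 sites (59.6%) had both and 4 (2.07%) had neither. Longer windows hold such short cores more readily, and no paired count was made 2000 bp away. Taken singly in 50 bp, GAGGAA was found at 35.8% of shared SPI1 summits, against 5.70% 2000 bp away. AATC was found at 48.2% of shared GFI1 summits, against 31.1%. Whether both occur together beyond these single shares was not tested. The RUNX core TGTGGT, the site of another myeloid regulator, was found at 9.33% of shared sites at the GFI1 summit (interval 5.98 to 14.3) and at 6.18% of GFI1-only summits, against 3.63% and 3.52% 2000 bp away. At SPI1-only summits it stood at 3.27%, against 3.66%. A match is a description of the sequence and does not show that the factor contacts it.

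LSD1, the histone demethylase that GFI1 brings to DNA, was mapped in K562 cells, a human erythroleukemia line, that carried the non-targeting sgRNA sg-NT. Its 6548 peaks overlapped 283 of 3268 GFI1-only sites (8.66%, interval 7.74 to 9.67), 16 of 193 shared SPI1 peaks (8.29%, interval 5.17 to 13.0) and 35 of 1653 SPI1-only sites (2.12%, interval 1.53 to 2.93). Outside promoters the shares were 6.40%, 6.36% and 1.68%, so the order of SPI1-only against the other classes was the same there. Shared sites resembled GFI1-only sites in this readout, with intervals that overlapped. By their GFI1 peaks, 18 of 193 shared sites overlapped LSD1 (9.33%, interval 5.98 to 14.3). GFI1 peaks were wider than SPI1 peaks, and the part of width in these shares was not tested. When summits had to lie at most 200 bp apart to share a site, or an LSD1 summit, the SPI1-only share was 1.06%. The GFI1 list of the same K562 cells held 498 peaks and overlapped 77 GFI1-only sites (2.36%), 3 shared SPI1 peaks (1.55%) and 2 SPI1-only sites (0.121%, interval 0.0332 to 0.440). These values come from another cell line and do not tell where LSD1 lies in THP1 cells.

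At the level of genes, the share with both factors was higher than at the level of sites. A gene window is far wider than a peak, so these shares are not on 1 scale. A gene window was the gene body with 10000 bp on either side. Of the 20046 protein-coding genes, 1500 (7.48%) had an SPI1 site in the window, 2788 (13.9%) a GFI1 site and 482 (2.40%) sites of both. Thus 32.1% of the genes with SPI1 also had GFI1, and 17.3% of the genes with GFI1 also had SPI1. A shared site lay in 165 windows (0.823%), and 317 genes (1.58%) held both factors at separate sites only. Long genes have larger windows, and this bears on the counts. The median gene length was 98.2 kb for the 317 genes and 47.1 kb for the 165, against 27.4 kb for all genes. The gene body alone gave 200 genes with both factors at separate sites only, and 50000 bp on either side gave 983.

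The gene lists differed in which factor they held, as the bars for each list show. Of 50 myeloid transcription factor genes, 25 had a GFI1 site and 10 an SPI1 site. RUNX1 had 4 GFI1-only peaks with folds of 6.82 to 10.8. It is a very long gene (chromosome 21 from 34787801 to 36004667), and a longer window holds peaks more readily. GFI1-only peaks also lay at JUN (fold 11.2), MYB (12.3), HOXA9 (12.1 and 4.09), and MEIS1 (7.41 and 5.95). SPI1-only peaks lay at IKZF1 (fold 13.6), the gene of the lymphoid regulator Ikaros, and at LMO2 (7.83). These genes with 1 factor, and those of the granule and NADPH oxidase lists below, were chosen as examples after their values were seen. The lists were short and the intervals wide, and no test between lists was made.

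Granule protein genes often held a GFI1 site. Of 22 genes, 10 had a GFI1 site (45.5%, interval 26.9 to 65.3), against 13.9% of all protein-coding genes. Only 1, LYZ, had an SPI1 site, at the edge of its window (4.55%, interval 0.807 to 21.8), against 7.48% of all protein-coding genes. That interval holds the share of all genes, so SPI1 is not shown to be rarer in this list. The median length of the granule protein genes was only 6.39 kb. The 10 genes held 9 distinct GFI1 peaks, because the neighbours PRTN3, ELANE and AZU1, which encode azurophil granule proteases and azurocidin, share 1 peak in PRTN3 intron 1 (fold 10.3, −log10 p 17.7). MPO, the myeloperoxidase gene, had peaks 1023 bp (fold 16.2) and 4032 bp (fold 7.90) upstream of its start. S100A12 (fold 12) and BPI (fold 10.8) had a GFI1 peak within 100 bp upstream of the start. No SPI1 peak was called in the windows of any of these genes other than LYZ, and weaker SPI1 signal under the calling threshold cannot be read from a peak list.

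Among the NADPH oxidase genes, whose products make superoxide in phagocytes, SPI1 sites were frequent. Of 6 genes, 4 had an SPI1-only site at or near the start. An SPI1 site lay in the window of 7.48% of all protein-coding genes, and a GFI1 site in that of 13.9%. NCF4 had a peak 74 bp upstream (fold 18.3) and a second peak in an intron (fold 8.93). CYBA had a peak 344 bp downstream (fold 5.70) and NCF1 63 bp upstream (fold 12.1). NCF1 was the only one with GFI1 sites, 3 in number with folds of 5.39 to 15.0, all away from the start. NCF1 has near-identical pseudogene copies, so reads there cannot be placed with certainty. CYBB, which had no peak, lies on the X chromosome, where the SPI1 list had 7 peaks and the GFI1 list 2 in all.

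Some receptor and signalling genes held both factors, at shared or separate sites. This was so for 7 of 28 cytokine and growth factor receptor genes, 3 of 48 phagocyte receptor and integrin genes and 11 of 45 signalling genes, against 2.40% of all protein-coding genes (0.823% with a shared site and 1.58% with separate sites only). For each factor alone, 7.48% of all protein-coding genes had an SPI1 site and 13.9% a GFI1 site. Of the 28 cytokine and growth factor receptor genes, 11 had an SPI1 site, 11 a GFI1 site and 4 a shared site, namely CSF1R, TNFRSF1B, FLT3 and IL17RA. Of the 48 phagocyte receptor and integrin genes, 10 had SPI1, 14 GFI1 and 3 a shared site. Of the 45 signalling genes, 16 had SPI1, 17 GFI1 and 3 a shared site, while 8 had both factors at separate sites only. Antigen presentation genes had 6 of each among 21. Among the contrast lists, erythroid genes had 1 SPI1 and 0 GFI1 sites in 21 genes, B and T lymphoid genes 2 and 3 in 24, and genes of other tissues 0 and 3 in 25. Cytosolic ribosomal protein genes had 4 and 9 in 86. LSD1-CoREST genes had 1 and 2 in 15, and interferon regulatory factor genes 1 and 2 in 9. For the contrast, LSD1-CoREST and interferon regulatory factor lists, the intervals of both factors held the shares of all protein-coding genes. Their counts are therefore not told apart from those of genes at large.

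CSF1R, the gene of the macrophage colony-stimulating factor receptor, had 2 shared sites and no other peak. CSF1R lies on the minus strand of chromosome 5 from 150053291 to 150113372. At the shared site 31406 bp into the gene, the SPI1 peak had a fold of 9.26 and the GFI1 peak 17.5, with summits 612 bp apart. At the site 54412 bp into the gene the folds were 9.81 and 11.2. FLT3, a receptor of early progenitors, had a shared site 68937 bp from its start (SPI1 fold 12.1, GFI1 fold 6.06) and a GFI1-only peak at 18772 bp (fold 7.27). TNFRSF1B, a tumor necrosis factor receptor gene, had a shared site in an intron (folds 9.26 and 7.41) and a GFI1-only peak (fold 8.76). In these 3 genes every SPI1 peak was at a shared site.

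In the list of phagocyte receptors and integrins, TYROBP, FCER1G and FCGR2B had a shared site, while FCGR1A had GFI1 only and FCGR2A and FCGR3A had no peak. TYROBP and FCER1G encode adaptor proteins that pass on the signal of activating receptors. At TYROBP the SPI1 summit was 1081 bp and the GFI1 summit 879 bp upstream of the start, with folds of 11.9 and 11.3. At FCER1G they were 669 and 190 bp upstream, with folds of 9.16 and 7.14, and an SPI1-only peak (fold 9.59) lay downstream of the gene. FCGR2B, the gene of an inhibitory Fc receptor, had a shared site 4424 bp upstream of its start (folds 8.41 and 8.87), with summits 3 bp apart, and an SPI1-only peak at the start (fold 8.74). FCGR2B has close paralogs, so reads there may be split between copies. In the signalling list PTPN6, PIK3CD and NFKB1 had a shared site. At NFKB1 it lay near the start, with a GFI1 fold of 14.9 and an SPI1 fold of 5.89.

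At LYZ, the lysozyme gene, the shared site lay about 10 kb upstream. Its SPI1 summit was 10183 bp from the start with a fold of 6.94, and its GFI1 summit 10132 bp from the start with a fold of 17.1. Both summits lay just outside the gene window, and LYZ was counted because the edges of the peaks reached into it. The sequence printed above held GAGGAAGT once and AATC 3 times. Beyond the first 30 genes of the lists that held both factors, the following were named after their values were seen. At B2M, the beta-2 microglobulin gene, a weaker shared site lay downstream of the gene (folds 6.09 and 7.14). Shared sites also lay at GSE1, a gene of the LSD1-CoREST list (folds 9.97 and 7.41), and at the ribosomal protein gene RPS9 (folds 16.6 and 9.50).

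In the 317 genes with both factors at separate sites only, 215 had exactly 1 peak of each. Together they held 315 distinct SPI1 and 372 distinct GFI1 peaks. Neighbouring or overlapping genes, such as MYD88 and ACAA1, can hold the same pair, so the gene counts below include some pairs more than once. The nearest SPI1 and GFI1 summits were a median of 18.7 kb apart (quartiles 5.39 and 51.8 kb), and 24 genes had them within 1000 bp of each other. In 79 genes (24.9%) the nearest pair had GFI1 at a promoter and SPI1 outside one, in 38 (12%) the reverse, in 28 both were at promoters and in 172 (54.3%) neither was. The excess of GFI1 at promoters is also seen in the list as a whole.

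Several transcription factor genes were of this kind. FLI1, an ETS family gene, had SPI1 peaks with folds of 13.3 and 13.1 and a GFI1 peak with a fold of 4.85, 1112 bp from the nearer SPI1 summit. NFE2 had 1 SPI1 peak (fold 12.3) and 2 GFI1 peaks (folds 7.72 and 4.72). NR4A1, an early response gene, had both factors in its body with folds of 7.01 and 9.29. ETS1 and MEF2C had 1 peak of each, and CEBPD had a GFI1 peak 517 bp upstream of its start (fold 5.00) with an SPI1 peak downstream (fold 8.55).

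Receptor and signalling genes followed with either factor at the start. At IL6R, the interleukin-6 receptor gene, GFI1 lay 40 bp upstream of the start (fold 11.3) and SPI1 2272 bp downstream (fold 12). At GRB2, an adaptor of receptor kinases, GFI1 lay 347 bp upstream (fold 8.39) and SPI1 11758 bp into the gene (fold 12). Both of these summits counted as promoter, since the SPI1 summit lay within 1000 bp of another protein-coding transcript's start. The reverse of IL6R was seen at INPP5D, the gene of the phosphatase SHIP1. There SPI1 lay 317 bp from the start with a fold of 23.5 and GFI1 in an intron with a fold of 9.50. PIK3R5 had SPI1 436 bp upstream (fold 8.92) and GFI1 in an intron (fold 5.95). At MYD88, the adaptor of Toll-like receptors, SPI1 lay 123 bp downstream (fold 9.26) and GFI1 710 bp upstream (fold 6.74), so that the summits were 833 bp apart without overlap of the peaks. LCP1, CBL, SH2B3, IFNGR2 and IFNAR1 also held both factors apart.

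Among antigen presentation genes, also beyond the first 30, the neighbours TAP1 and TAP2 shared 1 SPI1 peak between them (fold 10.5) and had 2 GFI1 peaks (folds 6.22 and 4.95). Among the other lists, IRF5, an interferon regulatory factor gene, had SPI1 at 3203 bp (fold 15.7) and GFI1 at 11741 bp (fold 18.8). Its SPI1 summit counted as promoter, being within 1000 bp of another protein-coding transcript's start. CD247, a T cell receptor gene, had folds of 10.9 and 6.60.

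The following had the most separate peaks when genes were ordered by the smaller of both numbers of peaks, then by their sum. TTC7A had 2 SPI1-only and 4 GFI1-only peaks (GFI1 folds 7.73 to 17.5), and HIVEP3 had 4 and 2. FAM107B and ANO6 each had 2 and 3. HOOK2, ITPR2 and the unnamed genes ENSG00000272442 and ENSG00000286239 had 2 of each, a tie with 7 further genes that was settled by the order of symbols. HIVEP3 and ANO6 lie in the stretches of raised background. Without these stretches the number of genes with both factors at separate sites only was 302.

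Of the genes that the study turns on, PRTN3 and GFI1 had GFI1-only peaks, and ITGAM, CD86 and SPI1 itself had no peak of either factor in the window. From signal tracks of THP1 cells, the paper reports SPI1 and GFI1 binding near each other at the PRTN3 promoter. It also reports both factors, with LSD1 from NB4 cells, at ITGAM, GFI1 and CD86. A gene without a called peak is therefore not shown to be unbound. Of the 10 monocyte markers, CSF1R and LYZ held shared sites and FCGR1A held GFI1 only. Of 7 erythroid markers KLF1 had an SPI1 peak, of 5 B cell markers MS4A1 and PAX5 had a GFI1 peak, and the 5 T cell and 3 hepatocyte markers had none. No expression was measured in these cells, so these counts do not check the identity of the line.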

How the data were processed

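SPI1 and GFI1 binding was mapped by ChIP-seq in THP1 cells with 1 library per antibody, and peak lists of K562 cells served as a further readout. Before deposit, the authors used Trim Galore 0.6.1 on the reads, Bowtie2 2.5.4 for alignment against GRCh38 and Picard 3.1.0 to drop duplicates. Peaks came from MACS2 2.2.9.1, run per library, without ENCODE blacklisted regions. Whether MACS2 used the input library is not given in the sources used here. The deposited narrowPeak lists give the fold enrichment over local background as a ratio, the −log10 p-value and q-value at the summit and a score that was not used. The lowest −log10 p was 5.17 for SPI1 and 5.07 for GFI1. The GFI1 list of LSD1-depleted K562 cells was not used.

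Peaks were classed by an overlap of at least 1 bp, which was checked with bedtools 2.31.1. Summits were placed against protein-coding transcripts of GENCODE 44, with promoters within 1000 bp of a start. Motif cores were searched on both strands in 50 bp at the summit and 2000 bp to either side with pysam 0.24.0. Shares have 95% Wilson intervals (scipy 1.17.1, numpy 2.4.6, Python 3.11.15). Read totals are not given in these lists, so fragments and background at each summit were solved from its fold and p-value, taking the p-value as a Poisson tail and a pseudocount of 1 in the fold. The scripts were tested on simulated data. The genes named were the nearest to the 5 strongest sites of each class, the first 30 list genes with both factors, the 8 genes with the most separate peaks of both and PRTN3, ITGAM, CD86, GFI1 and SPI1. Some genes that meet this rule are not reported here. The classes, gene lists and comparisons were chosen with earlier results of these data known. The alternatives tried were other definitions of a shared site, a promoter and a gene window, a stricter −log10 p, the strongest 1500 peaks, other cores and windows and, chosen after seeing the data, the removal of stretches of raised background, sites outside promoters only and starts of all transcripts of protein-coding genes.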

Additional observations from a re-analysis of the deposited data

How the results depend on the processing

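Of 103 alternative values for 18 results, 70 stayed within the interval of the reported value, or within 1.5 times of it for counts and ratios. The other 33 fell outside. The order of classes did turn where intervals overlapped: shared sites were above SPI1-only sites in promoter share with the strongest 1500 peaks (15.7% and 12.5%) and with 5000 bp, and above GFI1-only sites in LSD1 overlap with summits at most 200 bp apart (6.54% and 6.5%). With summits at most 200 bp apart, shared sites were 8.29% of SPI1 and 4.42% of GFI1 peaks, and K562 LSD1 peaks overlapped 1.06% of SPI1-only and 6.5% of GFI1-only sites. With the strongest 1500 peaks of each list, shared sites were 6.80% of either list, their median summit distance 61.5 bp, promoters held 15.7% of shared and 24.2% of GFI1-only sites, GAGGAAGT was at 29.5% of SPI1-only and 2.22% of GFI1-only summits, AATCAC at 14.5% of GFI1-only summits, LSD1 at 10.2% of GFI1-only sites, and 134 genes held both factors at separate sites only. Promoters within 5000 bp held 26.8% of SPI1-only, 28.0% of shared and 39.6% of GFI1-only sites, and with all transcripts of protein-coding genes, an alternative added after seeing the data, 16.6% of SPI1-only and 29.3% of GFI1-only sites. In 200 bp, GAGGAAGT was at 39.4% of SPI1-only, 35.2% of shared and 4.93% of GFI1-only summits, and AATCAC at 7.68%, 21.2% and 28.2%. The shorter GAGGAA was at 43.8%, 35.8% and 8.17%, and AATC at 16.0%, 48.2% and 51.1%. The gene body alone gave 200 genes with both factors at separate sites only, and 50000 bp on either side 983. Without the stretches of raised background, also added after seeing the data, no value left these limits.

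No paired analysis was possible because THP1 cells had 1 library per antibody. Without replicates, a difference between the lists cannot be told apart from one between libraries, antibodies or depths. The median summit rests on 13.0 fragments in the SPI1 and 12 in the GFI1 list, so weaker sites may fall under the calling threshold, and a site called for 1 factor only is not shown to lack the other. Signal tracks were not analysed here.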
